A study of Mus musculus with 34 samples.

Results

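Olfactory bulb neuron genes were followed through the brain of the 3-day-old mouse in 34 brain fractions. The set held 7 genes of 20141 named on the array, measured by 9 of its 55681 probes. All probes of Tbx21, Cdhr1, Doc2g, Eomes, Sp8, Calb2 and Omp were taken by their RefSeq accession, whatever their values. The 7 genes themselves were chosen with earlier results of these data known. Tbx21, Cdhr1, Doc2g and Eomes stood for the mitral and tufted cells (4 genes), Sp8 and Calb2 for the interneurons (2 genes) and Omp for the sensory axons (1 gene).

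The data were obtained by transcriptome tomography, in which a frozen brain is sliced along a body axis, the slices are pooled into fractions, and the RNA of each fraction is measured on a microarray. The 3 mice were C57BL/6J males, 3 days of age, and no treatment is named for them. Each whole brain was cut along its own axis. Mouse 1 gave 15 coronal fractions, mouse 2 gave 8 horizontal fractions and mouse 3 gave 11 sagittal fractions, so that axis and mouse cannot be told apart. A fraction pooled 100 slices of 5 μm (500 μm), except that sagittal fractions 1 and 11 each pooled 2 such cuts. Each fraction was measured once, and the labels do not state at which end of the brain the numbering began. Values are log2 signals minus the 75th percentile of their array (log2 normalized signal), and a value says where a probe was high or low, not how much RNA it measured compared with another probe. Each series had fractions in which the 9 probes exceeded background clearly, and this held for 34186 probes of the array, called all probes from here on. Fractions hold all cell types of a brain slab, and in such bulk samples more cells of a type and more RNA per cell cannot be told apart.

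Between 29598 and 37091 of 59305 spots were well above background on an array, and no spot was saturated. The SD between repeated spots of a probe was 0.059 to 0.108 (log2). The arrays lay on 5 slides. In the coronal series fractions 1 to 8 lay on slide 2, fraction 12 on slide 5 and the other 6 on slide 3. In the horizontal series fractions 3 and 4 lay on slide 5 and the other 6 on slide 1. In the sagittal series fraction 1 lay on slide 3, fractions 10 and 11 on slide 5 and the other 8 on slide 4. Mirror fractions of the sagittal series, whose numbers add up to 12, gave the SD of a single fraction, and this was 0.48 for Tbx21, 0.29 for Cdhr1, 0.24 for Doc2g, 1.02 for Eomes, 0.39 for Sp8, 0.34 for Calb2 and 0.0775 for Omp. That SD also holds any real difference between the sides of the brain.

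The olfactory bulb is the first relay of smell. Axons of olfactory sensory neurons, whose cell bodies lie in the nose, enter glomeruli of the bulb and contact mitral and tufted cells, the glutamatergic projection neurons that send the signal on to the olfactory cortex. Granule cells and periglomerular cells, the interneurons of the bulb, inhibit them and continue to arrive after birth from the subventricular zone by way of the rostral migratory stream.

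The genes of the mitral and tufted cells were lowest or near their median over most of the coronal series and highest at its end. Tbx21 encodes the T-box transcription factor T-bet, which in the brain marks mitral and tufted cells. Its log2 normalized signal lay between -5.28 and -3.75 in coronal fractions 1 to 12, was not well above background in fractions 1 and 5, and then read 0.37 in fraction 13, 3.04 in fraction 14 and 3.46 in fraction 15. The last 3 fractions stood clear of all others and held 97.2% of the summed coronal signal of Tbx21, against a median of 20.7% over all 34186 probes. Cdhr1, a cadherin-related protein of mitral and tufted cells and of photoreceptors, lay between -0.54 and 0.89 in fractions 1 to 12 and read 2.45, 5.20 and 5.42 in fractions 13, 14 and 15. These 3 fractions held 86.2% of its signal.

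Doc2g belongs to the Doc2 family of C2-domain proteins. Its values went from -3.59 in coronal fraction 1 to -1.06 in fraction 12, read -0.63 in fraction 13, and reached 1.72 and 2.79 in fractions 14 and 15. Fractions 14 and 15 stood apart, and fraction 13 did not. Eomes (Tbr2), a T-box transcription factor of mitral and tufted cells that is also known from intermediate progenitors of the cortex and from the cerebellar rhombic lip, showed a second region of signal. It read 0.95, 1.32 and 1.54 in coronal fractions 1, 2 and 3, lay between -1.74 and 0.44 in fractions 4 to 12, and read 1.41, 3.77 and 3.96 in fractions 13, 14 and 15. Fraction 13 therefore lay within the range of fractions 1 to 3, and fractions 14 and 15 lay above it. The other Eomes probe read -2.38, -1.92 and -1.95 in fractions 1, 2 and 3 and -1.46, 0.64 and 1.01 in fractions 13, 14 and 15, so that its fraction 13 lay above fractions 1 to 3. Cerebellar and rhombic lip genes were highest at the low end of the same series: Atoh1 and Pcp2 peaked in coronal fraction 1, and En2 and Lmx1a in fraction 3. The part of these regions in the Eomes signal of fractions 1 to 3 was not tested.

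The bases upstream of these 4 genes are shown as those of the mitral and tufted cell class. The RefSeq promoter table (GRCm38.p6) held 5 of the 7 genes, and Calb2 and Omp had no entry. Each sequence gives the 250 bases before the start of the gene, 5′ to 3′ on the strand of the gene. Capitals mark, on either strand, the T-box core GGTGTG, the GC box GGGCGG and the CCAAT box CCAAT. No match of one motif overlapped a match of another in these windows.
Tbx21, chr11:97115332-97115581, minus strand: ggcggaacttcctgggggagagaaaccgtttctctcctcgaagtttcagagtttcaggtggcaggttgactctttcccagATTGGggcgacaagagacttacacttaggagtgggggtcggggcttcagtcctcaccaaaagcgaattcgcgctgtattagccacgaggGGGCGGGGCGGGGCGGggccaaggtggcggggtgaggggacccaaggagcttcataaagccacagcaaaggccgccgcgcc
Cdhr1, chr14:37098348-37098597, minus strand: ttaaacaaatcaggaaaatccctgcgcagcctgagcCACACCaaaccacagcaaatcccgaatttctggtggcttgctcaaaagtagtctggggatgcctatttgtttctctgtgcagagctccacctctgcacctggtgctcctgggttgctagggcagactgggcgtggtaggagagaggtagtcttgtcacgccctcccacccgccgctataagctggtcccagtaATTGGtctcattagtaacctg
Doc2g, chr19:4003135-4003384, plus strand: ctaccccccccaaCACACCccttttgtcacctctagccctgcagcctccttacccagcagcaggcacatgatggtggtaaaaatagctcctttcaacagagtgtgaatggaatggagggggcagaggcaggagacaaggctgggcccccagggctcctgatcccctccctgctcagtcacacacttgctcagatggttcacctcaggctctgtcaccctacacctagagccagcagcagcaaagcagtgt
Eomes, chr9:118477939-118478188, plus strand: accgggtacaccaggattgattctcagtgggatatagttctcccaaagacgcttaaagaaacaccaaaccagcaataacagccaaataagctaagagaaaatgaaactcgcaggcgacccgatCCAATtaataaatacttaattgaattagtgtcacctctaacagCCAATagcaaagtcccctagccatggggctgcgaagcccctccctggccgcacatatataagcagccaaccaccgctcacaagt
The T-box core was present 1 time each in the Cdhr1 and Doc2g windows and in neither of the windows of the T-box genes Tbx21 and Eomes. It occurs in 16.3% of all 32851 promoter windows of this length. The Tbx21 window held 3 GC boxes in a row, each sharing a base with the next, and a GC box is found in 32.7% of all windows. The CCAAT box was present 1 time in the Tbx21 window, 1 time in the Cdhr1 window and 2 times in the Eomes window, and in 33.8% of all windows. The T-box core was not particular to the class, since 1 of the 3 windows of the interneuron gene Sp8, not printed here, held it too. A match is a string of letters and not a measured binding site.

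The interneuron genes had less sharp profiles. Sp8 encodes a zinc finger transcription factor of the interneuron lineage of the bulb. It was not well above background in coronal fraction 1, lay between -2.67 and -0.76 in fractions 2 to 7, and went from 0.18 in fraction 8 to 1.90 in fraction 12, 2.04 in fraction 13, 3.47 in fraction 14 and 3.69 in fraction 15. Fractions 13 to 15 held 69.3% of its signal. Its other probe went the same way, from -4.71 in fraction 2 to -1.77 in fraction 12 and -1.01 in fraction 15, with a smaller share of 48.8% in fractions 13 to 15. Calb2 encodes the calcium-binding protein calretinin, which is found in granule and periglomerular cells and in many other neurons. Calb2 lay between -1.32 and 0.78 in fractions 1 to 12, and read -0.01, 1.28 and 2.10 in fractions 13, 14 and 15. Fractions 14 and 15 were its highest, with the smallest distance to the rest of the series among the 7 genes, and fractions 13 to 15 held 40.0% of its signal.

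Omp encodes olfactory marker protein of mature olfactory sensory neurons. Its signal was flat over coronal fractions 1 to 13, where it lay between -2.86 and -2.24, and then read 0.50 in fraction 14 and 2.16 in fraction 15. Only these 2 fractions of the 15 stood apart, and together with fraction 13 they held 74.1% of the summed coronal signal of Omp.

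All 7 genes were highest in coronal fraction 15. A peak call was a highest value at least 2 (log2) above the series median, a description without a test since each fraction has 1 array. All 7 genes had such a call in coronal fraction 14 or 15, against 1.23% of the probes (4.87% had a call in any coronal fraction). The peak height was 7.70 for Tbx21, 5.05 for Cdhr1, 4.85 for Doc2g and 4.38 for Eomes, then 3.50 for Sp8, 2.10 for Calb2 and 4.63 for Omp. The median height was 4.95 over the 4 mitral and tufted cell genes, 3.50 over the 3 interneuron and sensory axon genes and 0.57 over all probes. The value of 3.50 is that of Sp8, whose other probe had a height of 2.52. Omp, with 4.63, stood between Doc2g and Eomes in this order, and a difference between the classes of genes was not tested because 7 genes are not replicates. With a normexp background correction the height of Tbx21 was 5.50 and that of Calb2, at 1.86, no longer reached 2.

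**Figure D1:**
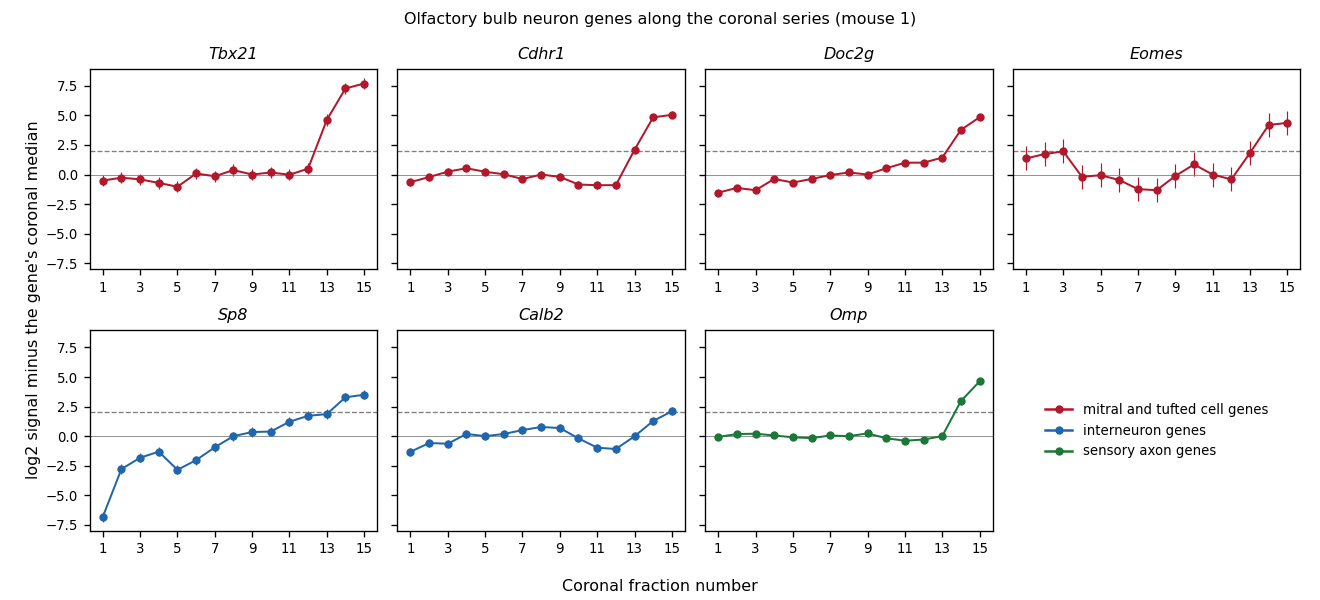
Log2 normalized signal of each gene minus its coronal median (vertical axis, log2) against the number of the coronal fraction of mouse 1, with bars of 1 SD of a single fraction from the sagittal mirror pairs and a dashed line at the peak call of 2. All 7 genes are highest in fraction 15, Tbx21 and Cdhr1 go up from fraction 13 on, Omp mostly from fraction 14 on, and Eomes has a second, lower region in fractions 1 to 3.

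The fraction in which the signal first went up differed between the genes. Fraction 12 lay on another slide than its neighbours, so the rise into fraction 13 was also taken from fraction 11, on the slide of fractions 13 to 15. Fraction 13 minus fraction 11 was 4.62 for Tbx21 and 2.99 for Cdhr1. This is 6.88 and 7.23 times the SD of a difference between fractions, derived from the sagittal mirror pairs of mouse 3. No such SD was measured for the coronal fractions of mouse 1. These steps have no test. The step of Eomes was 1.83, only 1.27 times its SD of 1.44, and that of its other probe was 2.74, or 2.72 times its SD. The step was 0.96 for Calb2, 0.64 for Sp8, 0.43 for Doc2g and 0.39 for Omp. These were 2.00, 1.16, 1.23 and 3.54 times their SD. The small step of Omp exceeded its SD, which came from the sagittal mouse. That step led only from the lowest coronal value of Omp (-2.86, fraction 11) to its coronal median (-2.47, fraction 13). Of the 7 genes, 3 had a step of at least 1, all mitral and tufted cell genes, against 3.3% of the probes. The fourth gene of that class, Doc2g, was among those below 1. With fraction 12 as the base the count was 4, Calb2 being the fourth with 1.08, against 3.07% of the probes.

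From fraction 13 to 14 all 7 genes had a step of at least 1, against 2.76% of the probes. It was 2.97 for Omp, 2.75 for Cdhr1, 2.67 for Tbx21, 2.36 for Eomes and 2.35 for Doc2g, and 1.42 for Sp8 and 1.30 for Calb2. The step of Eomes was 1.64 times its SD, and that of the other Sp8 probe was 0.69, or 1.23 times its SD. From fraction 14 to 15 only Omp (1.66) and Doc2g (1.07) had a step of at least 1, against 7.06% of the probes. The other 5 genes had steps of 0.19 to 0.82. On the log2 scale, Tbx21 had covered 59.9% of its way from fraction 11 to 15 by fraction 13 and Cdhr1 50.3%. Omp had covered 7.73% and Doc2g 11.1%. These are not shares of signal. Fractions 14 and 15 held 91.1% of the summed coronal signal of Tbx21, 80.6% for Cdhr1, 74.4% for Doc2g and 71.9% for Omp. The Tbx21 value of fraction 11 (-4.26) lay near the lowest one well above background on that array (-4.82). Under the normexp correction the step of Tbx21 from fraction 11 to 13 was 2.52 and that of Cdhr1 2.65. Each of these steps rests on 1 array a fraction of 1 mouse.

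**Figure D2:**
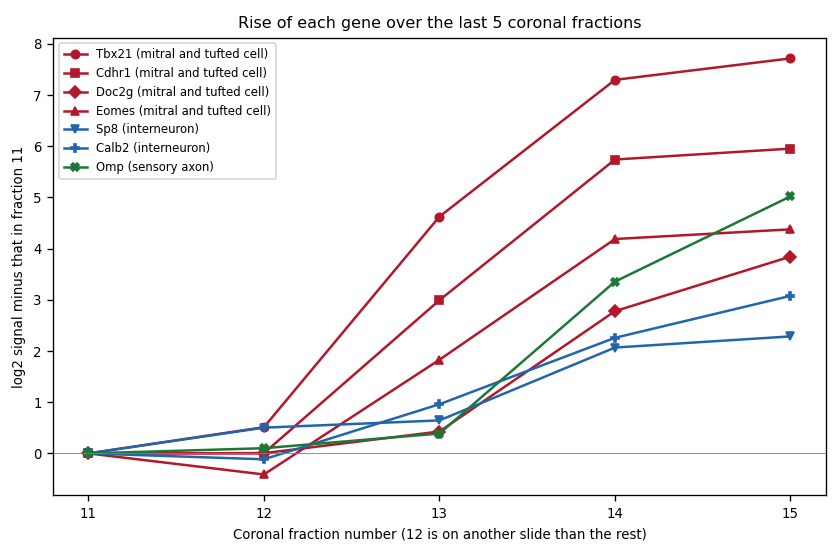
Log2 normalized signal minus that in fraction 11 (vertical axis, log2) for coronal fractions 11 to 15 of mouse 1, 1 line a gene, coloured by class. In fraction 13 Tbx21 stands at 4.62 and Cdhr1 at 2.99, while Doc2g and Omp stand at 0.43 and 0.39 and go up further from fraction 14 on.

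In the horizontal series the genes were higher at the high numbers. Tbx21 read -2.32 in fraction 1, lay between -4.65 and -4.13 in fractions 2 to 4, read -1.63 in fraction 5, and lay between -0.13 and 0.01 in fractions 6 to 8. Fractions 2 to 4 formed a low stretch between a higher first fraction and a plateau. Cdhr1 had the same order, with 0.87 in fraction 1, 0.19 to 0.40 in fractions 2 to 4, and 1.38, 2.35, 2.60 and 2.46 in fractions 5 to 8. Eomes read -0.70, -4.09, -1.81 and -0.04 in fractions 1 to 4 and lay between 0.10 and 1.13 in fractions 5 to 8. Fraction 2 was by far its lowest. Doc2g lay between -2.13 and -1.62 in fractions 1 to 5 and between -0.90 and -0.54 in fractions 6 to 8. Sp8 went from -1.51 in fraction 2 to 1.84 in fraction 7, Omp from -3.08 in fraction 2 to -1.28 in fraction 7, and Calb2 stayed between -0.57 and 0.60.

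Fractions 5 to 8 all lay above fractions 2 to 4 for 5 of the 7 genes (Tbx21, Cdhr1, Eomes, Sp8 and Omp), against 6.63% of the probes. Doc2g and Calb2 overlapped. Within slide 1, where only fraction 2 of the low stretch lay, fractions 5 to 8 were all above fraction 2 for 6 of the 7 genes, against 20.9% of the probes, and Doc2g was the exception. None of the 7 genes reached the peak call of 2 in this series (1.94% of the probes), and Tbx21 came nearest with a height of 1.99. Fraction 1 stood above the median of fractions 2 to 4 by 1.83 for Tbx21, 1.11 for Eomes, 0.96 for Omp and 0.61 for Cdhr1. An excess of at least 1 was seen for 2 of the 7 genes and for 4.79% of the probes. For Calb2 the same difference was -0.17.

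**Figure D3:**
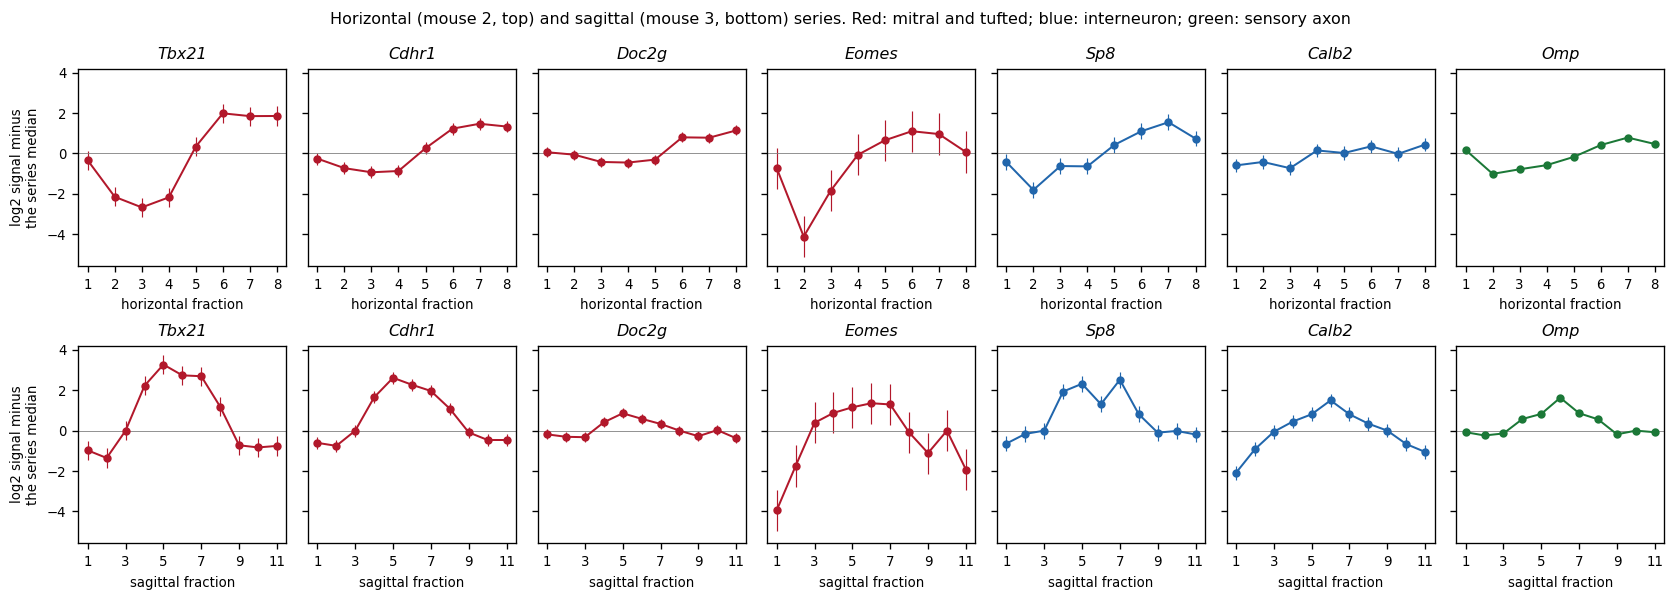
Log2 normalized signal of each gene minus its series median (vertical axis, log2) in the 8 horizontal fractions of mouse 2 (top) and the 11 sagittal fractions of mouse 3 (bottom), with bars of 1 SD of a single fraction. Tbx21 and Cdhr1 reach a plateau in horizontal fractions 6 to 8, and all 7 genes peak in sagittal fractions 5 to 7.

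The sagittal series crosses the brain from side to side, and the genes peaked in its middle. Tbx21 read -3.94, -4.32 and -2.96 in fractions 1 to 3, -0.74, 0.31, -0.22, -0.26 and -1.78 in fractions 4 to 8, and -3.69, -3.79 and -3.72 in fractions 9 to 11. The inner 5 fractions and the outer 6 did not overlap. Cdhr1 lay between 1.36 and 2.89 in fractions 4 to 8 and between -0.48 and 0.28 outside them. Sp8 lay between 0.38 and 2.09 inside, with a dip to 0.87 in fraction 6, and between -1.07 and -0.43 outside. Calb2 and Omp were highest in fraction 6 itself, at 1.07 and -0.89, and fell off on both sides. Doc2g had its highest value, -0.80, in fraction 5 and its lowest, -2.04, in fraction 11. Eomes lay between -0.14 and 1.30 inside and ranged from -4.00 in fraction 1 to 0.34 in fraction 3 outside, so that its groups overlapped.

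Inner fractions (4 to 8) were compared with outer fractions (1 to 3 and 9 to 11) by limma, with 1 mean for each distance from fraction 6, which was taken as the midline. All 7 genes were called higher in the inner fractions (adjusted p under 0.05), as were 9.73% of the probes. The difference was 3.25 ± 0.26 (SE, 11 fractions) for Tbx21 (adjusted p = 0.00109), 2.37 ± 0.16 for Cdhr1 (adjusted p = 0.000833), 2.38 ± 0.55 for Eomes (adjusted p = 0.0220) and 0.70 ± 0.14 for Doc2g (adjusted p = 0.0127). The median over these 4 genes was 2.38, against -0.04 over all probes. Among the interneuron genes it was 1.89 ± 0.21 for Sp8 (adjusted p = 0.00253) and 1.70 ± 0.19 for Calb2 (adjusted p = 0.00230), and for Omp it was 1.13 ± 0.06 (adjusted p = 0.000494). All inner fractions lay above all outer fractions for Tbx21, Cdhr1, Sp8, Calb2 and Omp (5 of 7 genes, 4.35% of the probes). The peak call of 2 was reached by Tbx21 (3.27), Cdhr1 (2.62) and Sp8 (2.52), or 3 of 7 genes, against 1.95% of the probes. The p-values measure the spread between mirror fractions of 1 mouse.

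**Figure D4:**
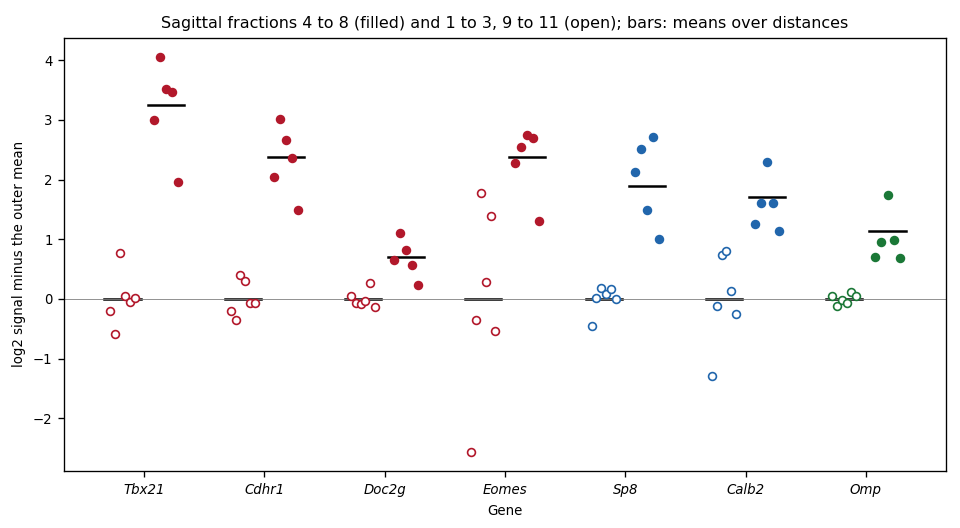
Log2 normalized signal minus the outer mean of the gene (vertical axis, log2) in the 11 sagittal fractions of mouse 3, with 5 inner fractions filled, 6 outer fractions open and bars at the means over distances. Inner and outer points are apart for Tbx21, Cdhr1, Sp8, Calb2 and Omp, and they overlap for Eomes and slightly for Doc2g.

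With the slide as a term in the fit, 4 of the 7 genes were called, and Doc2g (adjusted p = 0.0788), Eomes (0.0531) and Sp8 (0.0532) were not. Within the 8 fractions of slide 4 the differences were 0.77 for Doc2g and 2.05 for Eomes, with adjusted p of 0.0746 and 0.0697, and the other 5 genes were called. Eomes was also lost without sagittal fraction 4, 5 or 7 (2.22, 2.41 and 2.36, adjusted p = 0.0590, 0.0511 and 0.0551) and without the pooled end fractions 1 and 11 (1.61, adjusted p = 0.109) and with only distances 0 and 1 as inner (2.24, adjusted p = 0.0558). Doc2g was lost without the pooled ends too (0.68, adjusted p = 0.0537). The other Eomes probe, called in the main comparison, differed by 2.65 ± 0.39 (adjusted p = 0.00493). The Sp8 probes disagreed in this series, since the other probe had a difference of 0.08 ± 0.22 (adjusted p = 0.834) and ran from -3.65 to -2.58. The correlation of the Sp8 probes was 0.84 over all 34 fractions and 0.32 over the sagittal ones, whereas the Eomes probes correlated at 0.97 and 0.98. Of all calls, 37.3% were higher in the inner fractions. That share was 18.6% with the array median as the scale, which moved the median of all probes to -0.145, 17.2% with normexp, and 52.0% with the slide as a term.

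The sides of the sagittal series were compared over the 5 mirror pairs. High minus low numbers was -0.32 ± 0.25 (SE) for Tbx21 and -0.17 ± 0.16 for Cdhr1 by limma, neither past the threshold (adjusted p = 0.695 and 0.737). Eomes deviated to both sides, from -1.50 in fractions 3 and 9 to 2.02 in fractions 1 and 11, and its 2 probes deviated together. By limma 0 of 34186 probes were called (0%), with 3263 at an unadjusted p under 0.05.

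Pearson's r over the 34 fractions, the measure used for similarly expressed transcripts (SET), described how alike the profiles were. The fractions share mice, slides and neighbours, so r is given without a test. By r Tbx21 and Cdhr1 were the closest pair at 0.94, and at 0.94, 0.98 and 0.99 in the coronal, horizontal and sagittal series. Within the mitral and tufted cell genes r ranged from 0.51 (Doc2g and Eomes) to 0.94, with a median of 0.76 over 6 pairs. Between them and Omp the median was 0.83, with 0.89 for Cdhr1 and Omp. Between them and the interneuron genes it was 0.63, from 0.41 for Eomes and Sp8 to 0.83 for Doc2g and Sp8. Doc2g was thus nearer to Sp8 than to Eomes, and Cdhr1 nearer to Omp than to Doc2g (0.80). Sp8 and Calb2 had an r of 0.52. By Spearman's rho the closest pair was Doc2g and Sp8 (0.88), and Tbx21 and Cdhr1 had 0.68. Without coronal fractions 14 and 15 the medians were 0.55 within the mitral and tufted cell genes and 0.55 with the other 3 genes together, against 0.76 and 0.73 with all fractions. Without horizontal fraction 1 they were 0.76 and 0.73.

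At r of at least 0.85, Omp had 53 similar probes, Cdhr1 33, Doc2g 26, Tbx21 25, Sp8 6, Eomes 4 and Calb2 3. The counts rest largely on the last coronal fractions. Without coronal fractions 14 and 15 they were 1 for Omp, 8 for Cdhr1, 5 for Doc2g, 10 for Tbx21, 4 for Sp8, 0 for Eomes and 4 for Calb2. By Spearman's rho they were 0 for Omp, 2 for Cdhr1 and 9 for Sp8, and with normexp 82 for Omp and 70 for Doc2g. Of the 19 named genes similar to Tbx21, 13 (of 27) were also similar to Cdhr1 and 10 (of 41) to Omp. The genes nearest to Tbx21 were Ms4a15 (r = 0.97), a membrane protein of the MS4A family, Cdhr1, Zpld1 (0.94), Apold1 (0.93) and S100a5 (0.92), a calcium-binding protein of olfactory sensory neurons. Ms4a15 and Zpld1 were well above background in only 14 and 17 of the 34 fractions. The genes nearest to Cdhr1 were Tfap2e (0.94), a transcription factor of the AP-2 family, Tbx21, Apold1 (0.94), S100a5 (0.93) and Nmb (0.92), which encodes the peptide neuromedin B. The genes nearest to Omp were S100a5 (0.95), Nmb (0.94), Bricd5, Apold1 and Matn4 (each 0.93). Apold1, S100a5 and Nmb were thus near to both classes, and Apold1 was the gene nearest to the mean of the 4 mitral and tufted cell genes (0.95).

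Doc2g was nearest to Akr1c18 (0.93), a steroid-metabolizing enzyme, Apold1 (0.91), Bco2 (0.90), Sall1 (0.88) and Atp6ap1l (0.87), but in the sagittal series Bco2 and Atp6ap1l had an r of -0.17 and 0.04 with it. Genes near to Eomes were Tmem132d and Tshz1 (each 0.88), Wnt10a and Pcp4l1 (each 0.85). Tshz1 encodes a zinc finger protein known from bulb interneurons. The genes nearest to Sp8 were Pdzph1 (0.88), its paralogue Sp9 (0.87), the ligand Wnt7a (0.85), Gem and the homeobox gene Vax1 (each 0.84). In the sagittal series Wnt7a and Sp9 had an r of -0.31 and 0.33 with Sp8, and in the horizontal series Gem had -0.50. The genes nearest to Calb2 were Fthl17a (0.91), Lbhd2 (0.88), Arhgef16 (0.83), Nppa (0.81) and Greb1 (0.79), the last with 0.11 in the horizontal series.

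Other genes of the bulb were taken from lists of known markers, and most of them had no peak call in coronal fraction 14 or 15. The highest coronal value still lay in fraction 14 or 15 for 6 of 10 detected genes of mitral and tufted cells. For bulb interneurons this held for 12 of 19 genes. The share of all probes highest there was not counted. Of 10 detected genes of mitral and tufted cells, Nmb (peak height 4.25) and Slc17a7 (2.74), the vesicular glutamate transporter VGLUT1, had a peak call in coronal fraction 14 or 15, which 1.23% of all probes had. The transcription factor gene Tbr1 had its highest value in coronal fraction 13, with a height of 1.36. In the sagittal test 4 of these 10 genes were called higher in the inner fractions and 2 lower. Slc17a7 (-1.38) and Tbr1 (-0.98) were lower there (adjusted p = 0.00288 and 0.000671), opposite to the 4 genes above, and Nmb was higher (1.27, adjusted p = 0.00365). All 5 genes of cortical projection neurons were called lower in the inner fractions, as were 16.3% of all probes. The inner excess was not particular to genes of the bulb. All 5 genes of the ventral hypothalamus were called higher (median 2.14), as were 3 of 5 of the cerebellum and rhombic lip (median 1.51). A call in this direction was made for 9.73% of all probes. The 5 hindbrain genes had a median of 3.67 and 0 calls. Of 19 genes of bulb interneurons, 4 had a peak call in coronal fraction 14 or 15 (against the same 1.23%): Scgn (4.56), Th (3.14), Dlx5 (2.15) and Tshz1 (2.01). Calb1 (2.22) and Pax6 (2.03) had a peak call in coronal fraction 1. In the sagittal test 8 of the 19 were called higher in the inner fractions and 1 lower. Scgn, which encodes secretagogin, was well above background in 11 fractions. The tyrosine hydroxylase gene Th, a marker of dopaminergic periglomerular cells, read 1.54 in fraction 12 and 4.68 in fraction 15. The lists of migrating neuroblasts (5 genes) and cortical intermediate progenitors (4 genes) had 0 peak calls there.

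Some markers of other cell types were also highest in coronal fraction 15, and others were not. Of 15 detected genes of olfactory sensory neurons, S100a5 (6.80), Gng13 (2.50) and Nqo1 (2.23) had a peak call in coronal fraction 14 or 15. Such a call was seen for 1.23% of all probes. Kirrel2 (5.37, fraction 2), Ano2 (2.17, fraction 3) and Rtp2 (2.035, fraction 10) had a peak call in other coronal fractions. Of the genes of the odour transduction cascade, Cnga2, Cnga4, Cngb1, Adcy3 and Gnal had none, with heights between 0.31 and 1.07. Gng13 and Ano2, also of that cascade, had the calls given above. Gnal read 5.37 in fraction 12 and 3.50 in fraction 15. The summed signal of that list lay between 4.55 and 5.71 in coronal fractions 1 to 12 and at 5.64 in fraction 15. Signals of a list were summed before log2 was taken. Of the support cell genes of the nasal epithelium, Cbr2 had a peak call (2.61), Obp1a was flat (0.18), and Cyp2g1 was well above background in 0 of 34 fractions. The log2 of the summed signal of the 2 detected ones was between -0.12 and 1.41 in coronal fractions 1 to 12. It was 1.39 in fraction 13, 1.98 in fraction 14 and 3.07 in fraction 15, where Cbr2 alone read 3.04. Of 5 detected genes of olfactory ensheathing cells, the glia around the sensory axons, 3 had a peak call in coronal fraction 14 or 15. They were Frzb (4.98) and, barely past the call of 2, Npy (2.13) and Sox10 (2.01), against the same 1.23% of all probes. Their list had a summed signal of 7.26 to 8.04 in fractions 1 to 12 and 8.86 in fraction 15. Such sums follow the brightest probes, and Fabp7 alone read 8.50 in fraction 15. The part of sensory, nasal and glial cells in the values of fraction 15 was not tested. Tbx21 and Eomes are also known from T and NK cells, and their markers were mixed. Of that list Cd3g, Ncr1 and Klrb1c were well above background in 0 of 34 fractions and Ifng in 1. Cd3e and Nkg7 were well above background in 34 fractions and Ptprc in 33, with coronal heights of 0.45, 0.49 and 0.71 and no peak call. The part of these cells was not tested.

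**Figure D5:**
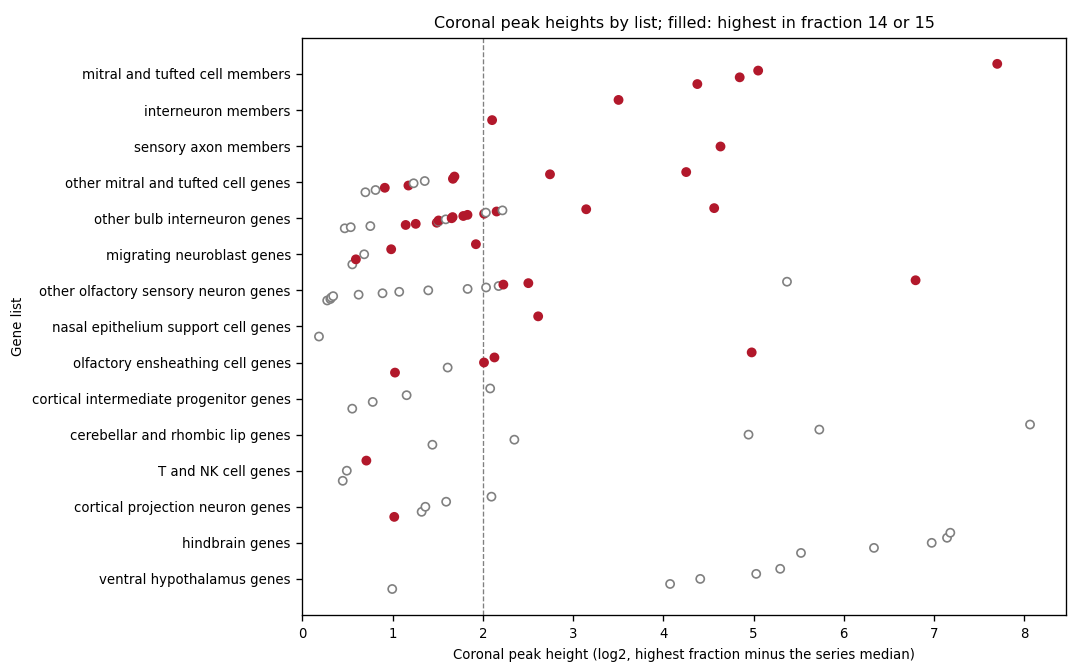
Coronal peak height (horizontal axis, highest fraction minus series median, log2) of every detected gene of each list, filled where the highest fraction was 14 or 15, with a dashed line at the peak call of 2. All 7 bulb neuron genes are filled and at or right of the line, Frzb and S100a5 reach 4.98 and 6.80, and the hindbrain and cerebellar genes are open.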

How the data were processed

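The authors hybridised Cy3-labelled cRNA of each fraction to an Agilent mouse array and extracted the scans with Feature Extraction 10.10.1.1. Per the file headers, the deposited intensity values used here are the processed signal, from which the scanner software had removed background without scaling one array to another, the spot and local background signals, and the flags for spots well above background. The authors also deposited a log2 table scaled per array, which matched the values used here within 0.02 for 99.92% of its entries. Here the processed signals of a probe's spots were averaged, log2 was taken, and each array was scaled to its own 75th percentile. Probes were named through their accession and RefSeq (26576 probes). A gene was represented by its probe with the highest mean. The 34186 probes detected in each series were tested with limma 3.58.1 in R 4.3.3 on the 11 sagittal fractions, with Benjamini-Hochberg adjustment over all of them. On simulated data, 184 of 200 probes planted with a difference of 2 (log2) were recovered, with 18 false calls. The simulated noise was independent between fractions, without slides or likeness of neighbours, and no smaller difference was planted. These figures therefore do not give the error rates on the real fractions. Coronal and horizontal fractions have 1 array a position, so their calls are descriptions. Correlations used Python 3.11.15. The precision is limited by the number of arrays. Named were all probes of the 7 genes, the 5 genes with the highest r to each, and of each marker list at most 5 genes with a peak call in coronal fraction 14 or 15. One gene that this rule names is not reported here. Further list genes, such as Tbr1, Cnga2 and Cyp2g1, were named after their values were seen. The members and lists were chosen with earlier results of these data known. Alternatives were the array median, quantile normalization, normexp (offset 50), the authors' table, no detection filter, other forms of the fit, and leaving out fractions or slides. Rises between neighbouring fractions, the test of sides and leaving out horizontal fraction 1 were chosen after seeing the data.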

Additional observations from a re-analysis of the deposited data

Results flagged for a closer look

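Among 18 groups of values (8 horizontal fractions and 5 mirror-pair differences of each of the 9 probes), 1 held a value far from the others, as chance gives in about 1 of 20 groups. The difference of Omp between sagittal fractions 10 and 2 was 0.239 on the log2 scale, while its other 4 mirror pairs differed by -0.042 to 0.032.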

How the results depend on the processing

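No paired analysis was possible because the fraction numbers run along different axes in different mice, and mirror fractions were paired only within the sagittal series. The count of the 7 genes called in the sagittal test was 4 with the slide as a term, and 6 to 7 when each sagittal fraction was left out in turn. The count of all probes called (8914) was 5451 with inner fractions at distances 0 and 1, 5835 without a detection filter, 16667 with normexp, 2376 on slide 4 alone, 2634 with the slide as a term, 3455 without the pooled ends, and 5980 to 9172 leaving out fractions. The number of probes with a peak call in coronal fraction 14 or 15 (419) was 1352 without a detection filter, 123 with normexp, 1948 at a call of 1 and 130 at a call of 3. The median r within the mitral and tufted cell genes was 0.544 as Spearman's rho, 0.794 with normexp and 0.552 without coronal fractions 14 and 15, and that with the other 3 genes was 0.562 as rho and 0.548 without those fractions. The other Sp8 probe, never called, turned negative in its sagittal difference with the array median (-0.030), distances 0 and 1 (-0.117), normexp (-0.085), slide 4 alone (-0.129), quantile normalization (-0.00026), the slide term (-0.308) and leaving out single fractions (-0.086 to 0.350). A peak height cannot be negative by its definition. Over the genes, series and alternatives, 14 peak heights moved by at least the SD of a single fraction, and 112 did not. No r of the 7 genes changed sign under the alternatives run on it, nor did a step from fraction 11 to 13 under the 4 run on it. Of the r values, 31 moved by at least their SD over the 3 series, and 179 did not. The step from 12 to 13 was 0.14 for Sp8 and -0.11 for its other probe. Under the settings tried, 6 or 7 of the genes had a peak call in coronal fraction 14 or 15. The causes were not tested. Tbx21 was not well above background in 2 of the 34 fractions.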
